A study of Tabanus nipponicus with 3 samples.

Results

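The cells of an insect midgut form a single sheet that digests the meal on one face and rests on a basement membrane on the other. The unigenes described here carry the names of the proteins that hold such a sheet together: 66 of the 8039 unigenes in the deposited table. The unigenes are transcripts pieced together from the reads alone, and each is named here for the closest listed protein of another species. A unigene was chosen when the name of its first listed hit held any of 24 words for cell junctions, cell polarity, cell adhesion, basement membrane, membrane skeleton or brush border motors, with collagenases left out. The choice used names alone and no measured level. Of the 66, 58 fell into 8 roles, and 8 were proteins of another kind that only share a word. These 8 were 5 metalloproteinases with a disintegrin domain, the phosphohydrolase MESH1, a calcium and integrin-binding protein and beta-catenin-like protein 1. The words coracle, discs large, scribble, snakeskin, claudin, perlecan, villin and fimbrin matched no first name.

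RNA came from the midguts of 3 adult females of the horse fly Tabanus nipponicus, a biting fly of the family Tabanidae. The flies were caught in the wild, were labelled WT in genotype, and gave 1 library per midgut, called fly 1, fly 2 and fly 3 here. All 3 belong to 1 group, so there is no treated or control arm, and neither age nor feeding state is given. The values show how high each unigene stood and how far the 3 individuals differed, without a test between groups.

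In Drosophila melanogaster, where these proteins are best studied in flies, neighbouring midgut cells are sealed by smooth septate junctions, which need the proteins Mesh, Snakeskin and Tsp2A. Epithelia of the skin, the trachea and the ends of the gut use pleated septate junctions, built with neurexin IV, contactin, neuroglian and the protein 4.1 relative Coracle. Adherens junctions join cells through cadherins and catenins, integrins tie the base of the cell to laminin and collagen IV, and spectrins, moesin and class I myosins shape the membrane and the brush border of microvilli.

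Levels are FPKM, which divides the reads of a unigene by its length and by the depth of the library, so they can be compared between unigenes of unequal length. The 3 libraries held 29308867 to 33797869 reads, recovered from the steps of the values, and the members' medians were 877, 1083 and 1342 reads in flies 1 to 3. Midgut enterocyte names, 42 in all and led by a trypsin, summed to 16744, 18239 and 12725 FPKM. Visceral muscle names, 14 in all, summed to 592, 607 and 1312 FPKM. The 9 fat body names summed to 6.75, 24.3 and 97.3 FPKM, and 1 of them, a vitellogenin, was listed at 0 in fly 1. Over all unigenes with a mean of at least 1 FPKM, the median difference of fly 3 from the mean of the other flies was 0.42 on the log2(FPKM + 1) scale. After median-of-ratios scaling, which sets the typical unigene equal between flies by dividing by 0.976, 0.838 and 1.27, it was -0.01. The order of flies below is that of the deposited values unless stated, and the main counts on fly 3 are given in both scalings.

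The 66 unigenes made up 0.373%, 0.321% and 0.391% of the summed FPKM in flies 1, 2 and 3, a mean of 0.361% ± 0.0362 (SD, n = 3). Their median level was 8.26 FPKM, beside 8.69 over all unigenes. An FPKM of at least 1 in all 3 flies was reached by 61 of the 66 members, or 92.4%, beside 81.6% of all unigenes. Levels were uneven: 6 members stood at a mean of 100 FPKM or more, 23 between 10 and 100, and 37 under 10. The top 6, which were mesh, cadherin-23-like, tetraspanin-6, tetraspanin-2A, moesin/ezrin/radixin homolog 1 and a spectrin beta chain, held 68.2%, 66.1% and 62.3% of the FPKM of the whole set. By role, the mean share of all FPKM was 0.116% ± 0.0185 for the septate junction, 0.0665% ± 0.00526 for the membrane skeleton and 0.0624% ± 0.0072 for cadherins and catenins. It was 0.0497% ± 0.00332 for the other tetraspanins, 0.0383% ± 0.00455 for unconventional myosins, 0.0134% ± 0.00392 for integrins and 0.00865% ± 0.00564 for the basement membrane (SD, n = 3). The septate junction thus held the largest share and the 2 roles facing the matrix the smallest of the roles with several members. Without fly 3 the basement membrane share was 0.00545%. The 8 proteins of another kind held 0.00538%.

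**Figure D1:**
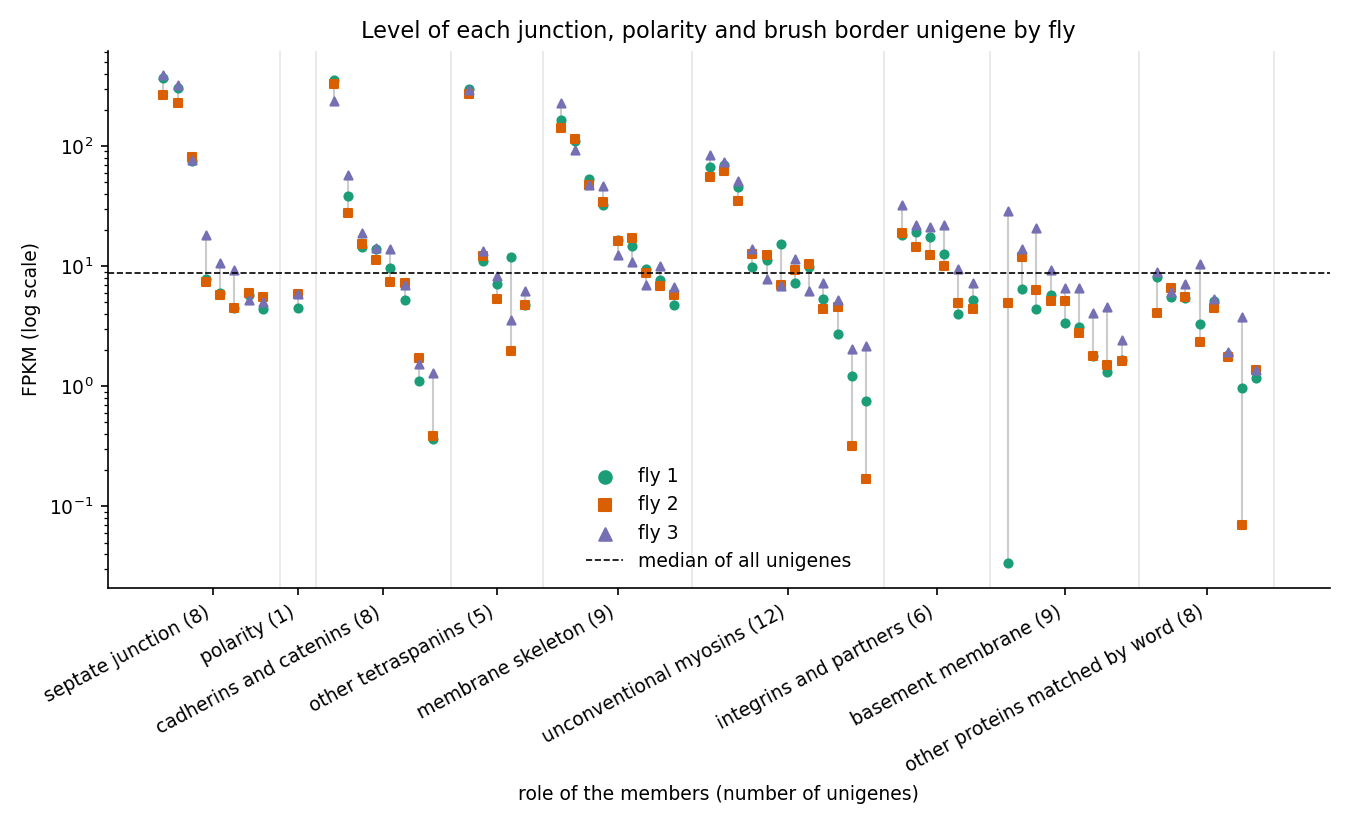
FPKM of each of the 66 members in each fly (vertical axis, log scale), grouped by role and ordered within a role by mean. Grey lines join the 3 flies of a unigene and the dashed line is the median of all unigenes, 8.69 FPKM. The top 6 members stand at or above 100 FPKM in the mean, and the widest spread belongs to a collagen.

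The septate junction held 8 members, and the pair that marks the smooth, midgut form in Drosophila stood far above the rest. Mesh (TRINITY_DN299_c0_g1_i12), a transmembrane protein of the smooth septate junction, was at 371, 268 and 388 FPKM in flies 1, 2 and 3, rank 205 of 8039 by mean level. Tetraspanin-2A (TRINITY_DN275_c1_g1_i7), its small partner in that junction, was at 303, 227 and 321 FPKM, rank 237. Both were lowest in fly 2 as deposited, with flies 1 and 3 close together. After median-of-ratios scaling both were highest in fly 1 and lowest in fly 3, whose differences from the other flies were -0.18 and -0.19 on the log2 scale. Their means were 342 ± 65.2 and 283 ± 49.8 FPKM (SD, n = 3), and mesh was the higher of the 2 in every fly. Taken within each fly, the ratio of mesh to tetraspanin-2A was 1.23, 1.18 and 1.21, a value that no scaling of the libraries can alter. Of 18 such ratios between members or near relatives, chosen after their values were seen, this was 1 of 2 with a coefficient of variation under 5%. Ratios over all pairs of members were not computed, so neither steady ratio can be called particular to junction partners.

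Members named for the pleated septate junction were lower, with neuroglian the highest of them. Neuroglian (TRINITY_DN348_c0_g1_i36), an immunoglobulin-type adhesion protein of septate junctions and of axons, was at 75.0, 81.2 and 76.5 FPKM. Neurexin-4 (TRINITY_DN3892_c0_g1_i1), a transmembrane protein of the pleated junction, was at 7.79, 7.35 and 18.3 FPKM. Contactin (TRINITY_DN11073_c0_g1_i8), its membrane-anchored partner, was at 5.99, 5.71 and 10.6 FPKM. Neuroglian was even across flies as deposited, whereas neurexin-4 and contactin were both highest in fly 3. The ratio of mesh to neurexin-4 was 47.6, 36.4 and 21.2 in flies 1 to 3, and that of mesh to contactin was 61.9, 46.9 and 36.8. So mesh exceeded both in every fly, least in fly 3. The 3 unigenes named protein 4.1 homolog, the family of Coracle, had means of 6.12, 5.62 and 5.01 FPKM. The first (TRINITY_DN34_c0_g1_i4) was highest in fly 3, at 4.50, 4.50 and 9.36 FPKM, and the other 2 were steady between 4.43 and 5.96 FPKM. They may be pieces of fewer genes, as described below.

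**Figure D2:**
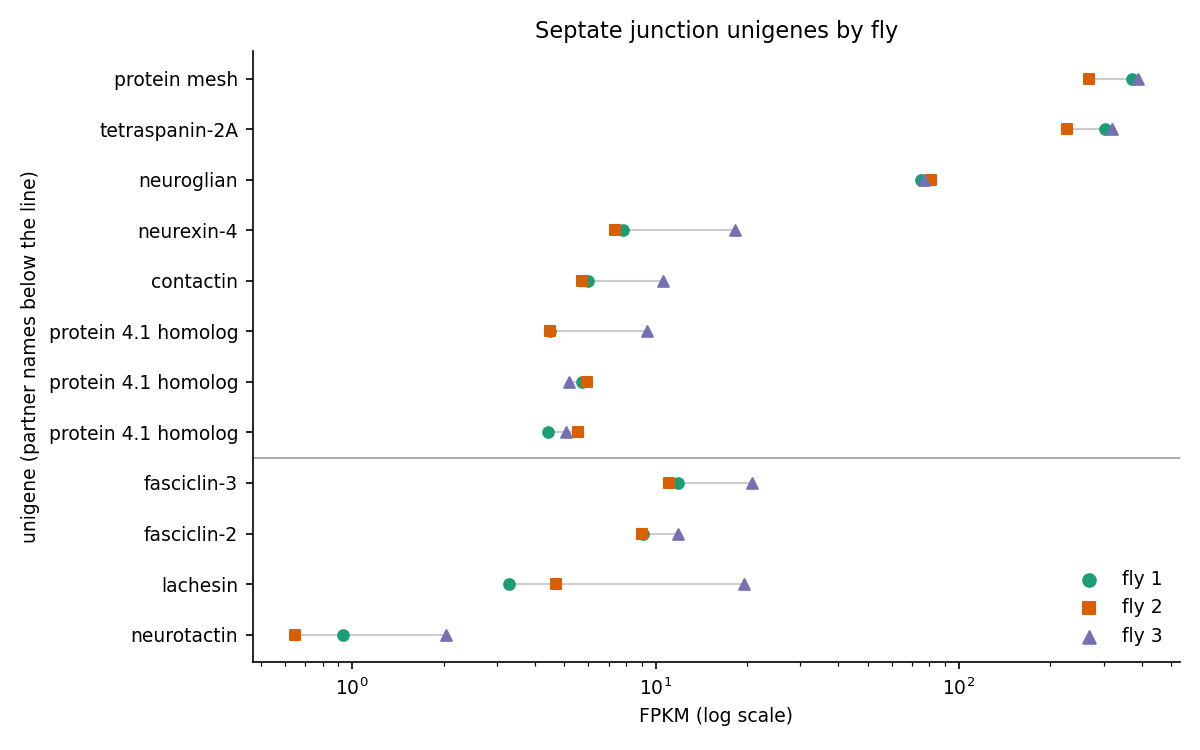
FPKM (log scale) of the 8 septate junction members and, below the grey line, of 4 partner names of that junction, with 1 symbol per fly. Mesh and tetraspanin-2A lie between 227 and 388 FPKM in every fly, neuroglian between 75.0 and 81.2, and the other names at or under 20.8, with fly 3 to the right for neurexin-4, contactin and lachesin.

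Partner genes of the septate junction that the 24 words did not cover were read from a separate list of names. The alpha subunit of the sodium/potassium pump, which is also a part of pleated septate junctions in Drosophila, was at 583, 549 and 491 FPKM. A beta-2 subunit was at 129, 101 and 123 FPKM. Both were highest in fly 1. The beta-1 subunit, at 79.8, 53.3 and 138.8 FPKM, and a second beta-2 unigene, at 2.66, 1.37 and 5.18 FPKM, were highest in fly 3. So the 4 pump unigenes had no common order of flies, and the pump serves ion transport in every cell. Lachesin, an adhesion protein of the pleated junction in the Drosophila trachea, was at 3.30, 4.70 and 19.5 FPKM. It was highest in fly 3 in both scalings, with a difference from the other flies of 2.05 on the log2 scale as deposited and 1.61 after median-of-ratios scaling. Fasciclin-3, at 11.9, 11.1 and 20.8 FPKM, and fasciclin-2, at 9.06, 9.03 and 11.9 FPKM, had differences of 0.35 and -0.08 after scaling. Of the 8 partner names of this junction, 6 were highest in fly 3 as deposited, beside 66.1% of all unigenes.

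Crumbs (TRINITY_DN724_c0_g1_i3), which defines the apical side of many epithelial cells, was the 1 member with a polarity role, at 4.48, 5.82 and 5.86 FPKM. Its hit covered 95.4% of a protein of 2092 residues, and the unigene was 11452 bases long. Fly 1 was lowest, and the other flies were nearly equal. The polarity partners outside the 24 words, 7 names in all, were led by lethal(2) giant larvae, a determinant of the basolateral side, at 91.0, 70.2 and 104 FPKM. The apical scaffold partitioning defective 6 followed at 17.7, 16.8 and 24.4 FPKM. Proteins known as Discs large and Scribble were listed under other spellings, found after values had been seen: disks large 1 at 8.25, 8.29 and 12.2 FPKM and lap4 at 14.1, 13.0 and 17.9 FPKM. These 4 were highest in fly 3 as deposited, where 66.1% of all unigenes were. After median-of-ratios scaling the differences of fly 3 were -0.10 for lethal(2) giant larvae and -0.08 for lap4, and 0.02 and 0.07 for the other 2. Of the 7 polarity partner names, 5 were highest in fly 3 as deposited. Partitioning defective 3 had 1 unigene highest in fly 2, at 13.3, 20.9 and 15.7 FPKM. Patj was highest in fly 1, at 6.21, 5.29 and 5.93 FPKM.

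The 8 cadherins and catenins were led by a unigene with a distant hit. Cadherin-23-like (TRINITY_DN7_c0_g1_i6, identity 46.5%) was at 353, 329 and 239 FPKM, a mean of 307 ± 60.4 (SD, n = 3) and rank 221. Cadherin-23 is known in mammals for the links between the stereocilia of hair cells, and its relatives in flies are less well described. The alignment covered 96.9% of the 1686 residues of the hit. Fly 3 was lowest in both scalings, with a difference from the other flies of -0.51 on the log2 scale as deposited and -0.996 after median-of-ratios scaling. This single unigene made up 77.5% of the summed mean FPKM of its role.

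The classical adherens junction stood at a lower level. DE-cadherin (TRINITY_DN1752_c0_g1_i3), which binds the same protein on the next cell, was at 9.64, 7.36 and 14.0 FPKM. Catenin alpha (TRINITY_DN1579_c0_g1_i16, identity 95.9%), which links the cadherin complex to actin, was at 38.1, 27.9 and 57.0 FPKM. Armadillo, the beta-catenin of Drosophila, which the words missed and which was looked up after values were seen, was at 48.8, 40.8 and 66.8 FPKM. The 3 unigenes kept 1 order of flies as deposited, with fly 2 lowest and fly 3 highest. Of the 7384 unigenes with a mean of at least 1 FPKM, 4246 were lowest in fly 2 and 4878 highest in fly 3, so this order is not particular to them. The ratio of catenin alpha to DE-cadherin was 3.96, 3.78 and 4.08 in flies 1 to 3, the other ratio with a coefficient of variation under 5%. By contrast the ratio of cadherin-23-like to DE-cadherin was 36.7, 44.8 and 17.1. Catenin delta-2 (13.8, 11.3 and 14.0 FPKM) and a fat-like cadherin (TRINITY_DN814_c0_g1_i17; 14.4, 15.4 and 19.0 FPKM), a large cadherin that in Drosophila acts in tissue organisation, varied little. A second fat-like unigene was at 5.23, 7.24 and 6.94 FPKM and protocadherin alpha-6 at 1.11, 1.72 and 1.54 FPKM. Cadherin-99C, which in Drosophila sits on microvilli of egg chamber cells, was the 1 member with a mean under 1 FPKM, at 0.361, 0.388 and 1.29. Both it and the protocadherin stood close to the detection bound of 1 FPKM. Among partners, vinculin, which binds catenin alpha and talin, was at 14.7, 18.1 and 33.8 FPKM and afadin-like, a linker to actin, at 4.92, 2.86 and 7.66 FPKM. Tight junction protein ZO-1, a scaffold at vertebrate tight junctions, was at 1.90, 1.29 and 2.69 FPKM. All 3 partners were highest in fly 3 as deposited, where 66.1% of all unigenes were. The differences of fly 3 from the other flies after median-of-ratios scaling were 0.54, 0.45 and 0.19.

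Among the 5 other tetraspanins, small membrane proteins that gather others into clusters, 1 was abundant. Tetraspanin-6 (TRINITY_DN12937_c0_g1_i23, identity 60.3%) was at 296, 269 and 293 FPKM, a mean of 286 ± 14.8 (SD, n = 3) and rank 235. Its coefficient of variation between flies was 5.18% as deposited, and that of tetraspanin-2A, at almost the same level, was 17.6%. After median-of-ratios scaling this contrast turned. The highest fly over the lowest was then 1.39-fold for tetraspanin-6 and 1.22-fold for tetraspanin-2A. Tetraspanin-5 was at 11.1, 12.0 and 13.3 FPKM and tetraspanin-31-like at 7.07, 5.33 and 8.25 FPKM. Tetraspanin-33 was at 4.71, 4.74 and 6.20 FPKM. Tetraspanin-7-like (TRINITY_DN2841_c0_g1_i4) stood apart, at 11.9, 1.97 and 3.57 FPKM. Here fly 1 was high and the others low.

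The membrane skeleton held 9 members, in which the spectrins and the moesin family differed in their order of flies. Moesin/ezrin/radixin homolog 1 (TRINITY_DN11236_c0_g1_i1), which ties actin to the membrane of microvilli, was at 165, 141 and 229 FPKM, a mean of 179 ± 45.5 (SD, n = 3) and rank 341. Homolog 2, of the family of the tumour suppressor Merlin, had 2 unigenes with means of 8.15 and 5.75 FPKM. The ratio of homolog 1 to the first of these was 21.6, 20.7 and 22.9. All 3 unigenes of this family were highest in fly 3 as deposited, where 66.1% of all unigenes were. After median-of-ratios scaling homolog 1 was at 169, 169 and 181 and remained highest there, and the other 2 did not.

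Spectrins, rod-like proteins that line the membrane as pairs of an alpha and a beta chain, had 6 unigenes. A spectrin beta chain (TRINITY_DN13254_c0_g1_i6) was at 110, 114 and 92.2 FPKM. Spectrin beta chain, non-erythrocytic 1 (TRINITY_DN1_c0_g1_i4) was at 53.5, 47.4 and 47.6 FPKM. The alpha chain (TRINITY_DN2370_c0_g1_i14, identity 93.5%) was at 32.0, 34.4 and 46.6 FPKM. Fly 3 was below the mean of the other flies for all 5 beta chains in both scalings. For the alpha chain its difference was 0.48 as deposited and 0.00 after median-of-ratios scaling. The median difference over the 6 spectrins was -0.31 as deposited and -0.76 after median-of-ratios scaling. As a result the alpha chain stood at 0.29, 0.302 and 0.505 of the first beta chain in flies 1, 2 and 3. Drosophila has a conventional beta chain and a longer one, beta-heavy, of the apical membrane. Hits of 4199, 4230 and 4285 residues belonged to 3 of the beta unigenes and a hit of 2375 residues to TRINITY_DN13254_c0_g1_i6. Beta spectrin (TRINITY_DN23_c0_g3_i2), whose hit was a Drosophila melanogaster protein at 94.9% identity, was at 14.7, 17.1 and 10.8 FPKM. The 3 with the long hits summed to 79.4, 72.4 and 66.8 FPKM, with fly 1 highest for each as deposited. Ankyrins anchor spectrin to membrane proteins. Ankyrin-3-like, whose hit had only 23.9% identity, was at 57.2, 25.2 and 12.0 FPKM and ankyrin-1-like at 29.8, 4.60 and 37.3 FPKM, with no shared order of flies. Other ankyrins varied less. Ankyrin-1, with 86.6% identity, was at 10.7, 9.36 and 12.2 FPKM, and ankyrin-3, with 71.1%, at 9.48, 11.9 and 8.74 FPKM.

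The 12 unconventional myosins, motors that move along actin rather than contract muscle, were led by class I. Myosin IC (TRINITY_DN3749_c0_g1_i8) was at 69.7, 61.5 and 73.9 FPKM, and the 2 unigenes of myosin ID were at 67.3, 54.7 and 83.9 FPKM (TRINITY_DN8649_c0_g1_i9) and at 45.9, 34.5 and 50.8 FPKM (TRINITY_DN3563_c0_g1_i9). Both proteins belong to class I, which is found in the brush border of the Drosophila gut. The order of flies was the same for these 3 as deposited, with fly 2 lowest and fly 3 highest, where 66.1% of all unigenes were highest. After median-of-ratios scaling none of the 3 was highest in fly 3. The ratio of myosin ID to IC was 0.966, 0.89 and 1.14. Unconventional myosin heavy chain 6 was at 15.3, 6.93 and 6.79 FPKM, highest in fly 1. Myosin Va, a carrier of vesicles, had 2 unigenes with means of 10.5 and 8.81 FPKM, both lowest in fly 3 in both scalings. Class IX had 3 unigenes with means of 12.1, 9.33 and 4.16 FPKM, all lowest in fly 1 as deposited. Myosin XVIIIa was at 5.29, 4.36 and 7.24 FPKM. The 2 unigenes of myosin XV, known from the tips of mammalian stereocilia, had means of 1.19 and 1.04 FPKM and rested on 8 to 90 reads per fly.

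Several brush border names that the 24 words missed were looked up after values were seen. They numbered 8 and summed to 404, 369 and 345 FPKM, lowest in fly 3. Myosin-VIIa-like, of a class found in stereocilia and microvilli, had 2 abundant unigenes at 119, 115 and 107 FPKM and at 97.1, 98.6 and 72.7 FPKM. Their hits had 65.3% and 60.0% identity. The 2 unigenes named myosin-VIIa, with hits of 92.6% and 90.5% identity, were low. They were at 3.87, 2.71 and 11.1 FPKM and at 2.10, 1.97 and 5.47 FPKM. Their differences of fly 3 from the other flies were 1.51 and 1.09 as deposited and 1.09 and 0.71 after median-of-ratios scaling. Prominin-like protein, named for a protein of membrane protrusions, was at 77.2, 58.1 and 52.0 FPKM. Plastin-1, a fimbrin-type bundler of actin in intestinal microvilli of mammals, was at 46.7, 32.2 and 47.1 FPKM. The levels of prominin-like protein and plastin-1 overlapped those of the class I myosins. The first myosin-VIIa-like unigene stood above every class I myosin in every fly. Myosin heavy chain 95F had 2 unigenes, at 40.1, 39.3 and 32.1 FPKM and at 18.7, 20.1 and 17.7 FPKM.

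Of the 6 integrin unigenes, the receptors for the basement membrane and their kinase, all were highest in fly 3 as deposited, where 66.1% of all unigenes were. After median-of-ratios scaling 4 of 6 were, beside 39.3% of all unigenes, and both unigenes of alpha-PS1 were then highest in fly 1. Integrin alpha-PS3 (TRINITY_DN263_c0_g1_i7) was at 18.2, 18.7 and 32.4 FPKM. Integrin alpha-PS1, a laminin receptor, had 2 unigenes at 19.3, 14.5 and 22.1 FPKM (TRINITY_DN2034_c0_g1_i1) and at 17.5, 12.4 and 21.2 FPKM (TRINITY_DN5418_c0_g1_i1). Integrin alpha-PS2, found on muscle in Drosophila, was at 3.97, 4.95 and 9.49 FPKM. The lead of fly 3 was widest for alpha-PS2 and small for alpha-PS1. Integrin beta-nu, a beta chain of the Drosophila midgut, was at 5.25, 4.42 and 7.19 FPKM. Integrin-linked kinase, listed as pat-4 homolog, was at 12.5, 9.99 and 21.8 FPKM. Talin-2, which couples integrins to actin, came from the partner list with 2 unigenes at 27.8, 31.6 and 35.0 FPKM and at 4.98, 5.22 and 5.86 FPKM. Talin thus varied less than the kinase.

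The 9 basement membrane unigenes, 6 laminins and 3 collagens, had the lowest summed level of the roles with more than 1 member and the widest spread between flies. They summed to 27.8, 41.1 and 96.7 FPKM in flies 1, 2 and 3. The laminins, the cross-shaped trimers of the sheet, summed to 21.7, 28.2 and 44.9 FPKM, and the collagens to 6.13, 13.0 and 51.7 FPKM. Fly 3 was highest in both sums. Collagen alpha-1(IV) (TRINITY_DN10739_c0_g1_i12), the network collagen of basement membranes, was at 4.43, 6.38 and 20.6 FPKM. Collagen alpha-2(IX)-like (TRINITY_DN2710_c0_g1_i8) was at 0.0335, 4.96 and 28.7 FPKM, from 2, 314 and 1576 reads. Its hit had 33.5% identity over 21.0% of the protein, so the collagen type is uncertain. Laminin subunit alpha (TRINITY_DN1947_c0_g1_i11) was at 6.43, 11.8 and 13.9 FPKM and laminin subunit gamma-1 at 5.70, 5.12 and 9.20 FPKM. The other 4 laminin unigenes, which included both of laminin beta-1, had means of 2.47 to 5.03 FPKM, and collagen alpha-1(XVIII) was at 1.67, 1.63 and 2.41 FPKM. All 9 members were highest in fly 3 as deposited, beside 66.1% of all unigenes, and 6 of 9 after median-of-ratios scaling, beside 39.3%. Collagen IV was low relative to laminin in fly 1 and high in fly 3, with ratios to laminin gamma-1 of 0.778, 1.25 and 2.24. From the partner list, SPARC, a matrix protein that binds collagen IV, was at 2.03, 7.92 and 25.5 FPKM and peroxidasin, which cross-links collagen IV, at 1.87, 2.17 and 5.70 FPKM. As deposited both were highest in fly 3, as were the collagens. After median-of-ratios scaling the differences for SPARC and peroxidasin were 1.90 and 0.76 on the log2 scale, and collagen alpha-1(XVIII) was highest in fly 2. Of the 6 matrix partner names with a mean of at least 1 FPKM, 5 were highest in fly 3 as deposited. The exception was a second peroxidasin unigene, at 0.360, 1.87 and 0.979 FPKM, with a difference of -0.25 after scaling.

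The 8 proteins of another kind had means of 1.30 to 7.03 FPKM, all under the median of all unigenes. Beta-catenin-like protein 1, a factor of RNA splicing, was at 8.11, 4.04 and 8.93 FPKM. The metalloproteinase ADAMTS9-type unigene, of enzymes that cut matrix proteoglycans, was at 5.51, 6.60 and 6.07 FPKM, and MESH1 at 5.44, 5.54 and 7.11 FPKM. Disintegrin and metalloproteinase 10, which sheds cell surface proteins, was at 3.28, 2.35 and 10.5 FPKM. Of these 4, that protease had the widest spread and was highest in fly 3 in both scalings.

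As deposited, variation between flies divided the set by role. By the rule used for the whole table, a mean of at least 5 FPKM and a 4-fold difference in FPKM + 1 between the highest and lowest fly, 2 of 54 members were variable, or 3.70%, beside 9.42% of all unigenes at that mean. They were collagen alpha-2(IX)-like and tetraspanin-7-like. Without fly 3 only tetraspanin-7-like was called, and without fly 1 or fly 2 only collagen alpha-2(IX)-like. Tetraspanin-7-like, at 4.34-fold, was just inside the bound, and collagen alpha-1(IV), at 3.98-fold, just outside. By a steady rule chosen after values were seen, the same minimum mean and a difference under 1.5-fold, 28 of 54 members were steady, or 51.9%, beside 40.4% of all unigenes. Steady members included mesh, tetraspanin-2A, tetraspanin-6, neuroglian, cadherin-23-like, crumbs and myosin IC. After median-of-ratios scaling the difference was 2.08-fold for cadherin-23-like and 1.59-fold for neuroglian, past the bound. As deposited, none of the 5 basement membrane unigenes at that mean was steady, whereas 7 of 9 in the membrane skeleton and 5 of 8 in the septate junction were. For members with a mean of at least 1, the median log2 SD between flies was 0.53, 0.22 and 0.28 in these roles, in that order. After median-of-ratios scaling it was 0.35, 0.32 and 0.31, so the contrast narrowed. Laminin gamma-1 then came within the bound, at 1.21-fold, and the spectrin beta chain TRINITY_DN13254_c0_g1_i6 passed it, at 1.85-fold. The median between-fly SD on the log2 scale was 0.30 over the 65 members with a mean of at least 1 FPKM and 0.38 over all unigenes, and without fly 3 the medians were 0.15 and 0.22. For the 54 members with a mean of at least 5 FPKM, the median coefficient of variation was 21.1% and the median counting error 3.51%.

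Which fly stood highest depended on the scaling for the set as a whole. As deposited, 48 of 65 members, or 73.8%, were highest in fly 3, beside 66.1% of all unigenes. Fly 1 was highest for 7 members, or 10.8%, beside 21.6%, and fly 2 for 10, or 15.4%, beside 12.4%. After median-of-ratios scaling 20 of 64 members, or 31.2%, were highest in fly 3, beside 39.3% of all unigenes. Counted against the mean of the other flies, fly 3 was higher for 53 of 65 members, or 81.5%, beside 77.2%, and after scaling for 27 of 64, or 42.2%, beside 49.6%. The median difference of fly 3 over the members was 0.36 as deposited and -0.08 after scaling, near that over all unigenes in both.

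The basement membrane and integrin unigenes were higher in fly 3 in either scaling. Fly 3 was above the mean of the other flies for 9 of 9 basement membrane members in both, with a median difference of 0.85 as deposited and 0.49 after median-of-ratios scaling. Over all unigenes fly 3 was above for 77.2% as deposited and 49.6% after scaling. For the integrins and their kinase it was above for 6 of 6 and, after scaling, for 5 of 6, with medians of 0.64 and 0.19, the exception being 1 unigene of integrin alpha-PS1. Among the 50 other members with a mean of at least 1 FPKM, 38 were higher in fly 3 as deposited and 13 of 49 after scaling, with medians of 0.28 and -0.19. The division by role was seen in these 3 flies after their values were known and carries no test. Several members share a protein name and may share a gene, so their counts may not be independent.

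**Figure D3:**
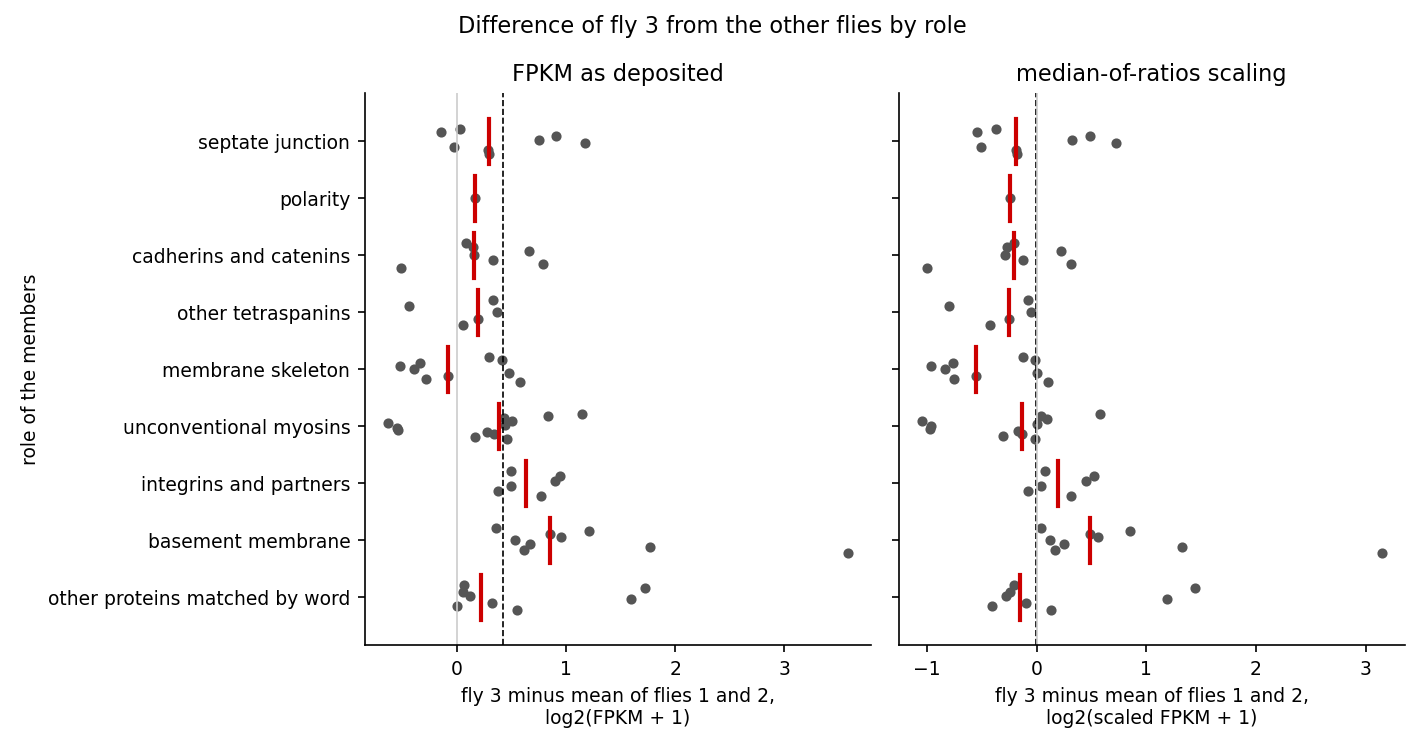
Difference of fly 3 from the mean of flies 1 and 2 on the log2 scale (horizontal axis) for each member with a mean of at least 1, by role, as deposited (left) and after median-of-ratios scaling (right). Red bars are medians of a role, the dashed line is the median of all unigenes, 0.42 on the left and -0.01 on the right. All 9 basement membrane points lie to the right of 0 in both panels, while the spectrin points make up most of the left side of the membrane skeleton row.

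Summed names of tissues attached to the midgut moved in the same direction, though not every name did. The 14 visceral muscle names included troponins, tropomyosin and muscle myosin heavy chain. In fly 3, 14 of 14 were above the mean of the other flies as deposited, beside 77.2% of all unigenes. After scaling 12 of 14 were, beside 49.6%. The summed fat body names ran in the order of the collagens, lowest in fly 1 and highest in fly 3. Apolipophorins made up 61.2% of their summed mean. All 6 with a mean of at least 1 FPKM were highest in fly 3, and a hexamerin and a vitellogenin below that were highest in fly 1. The 9 hemocyte names summed to 56.7, 42.0 and 85.6 FPKM, and croquemort-like made up 75.5% of their summed mean. Of the 7 with a mean of at least 1 FPKM, 5 were highest in fly 3 as deposited, beside 66.1% of all unigenes, and 2 in fly 2. Of the 5 cuticle names, which summed to 247, 8.79 and 543 FPKM, 2 were listed at 0 in a fly. A flexible cuticle protein made up 93.6% of their summed mean, and an adult-specific cuticular protein was highest in fly 2. The 7 neuron names summed to 31.5, 29.3 and 46.0 FPKM and the 3 stem and progenitor names to 24.2, 18.7 and 29.9 FPKM. As deposited, each of these sums was highest in fly 3. After median-of-ratios scaling the stem and progenitor sum was highest in fly 1, at 24.8, 22.3 and 23.6, and the others remained highest in fly 3. In Drosophila, visceral muscle carries integrin alpha-PS2, and fat body and hemocytes secrete much of the collagen IV. The part of these tissues in the levels of the matrix and integrin unigenes was not tested, and in such bulk samples fewer cells of a type and less RNA per cell cannot be told apart. Of the 6 pleated junction members, neurexin-4, contactin and 1 protein 4.1 unigene stood highest in fly 3, as the summed cuticle names did. Neuroglian and the other 2 protein 4.1 unigenes stood highest in fly 2. The part of the ends of the gut or of tracheae in these levels was likewise not tested.

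**Figure D4:**
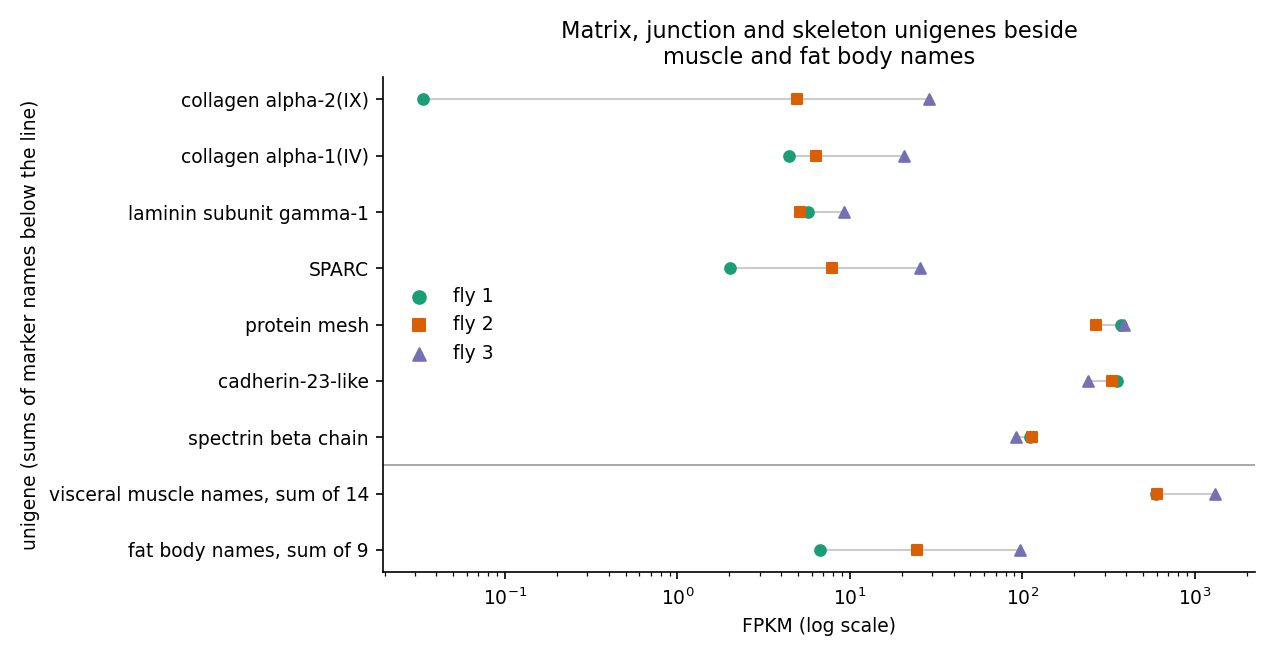
FPKM (log scale) in each fly for 4 matrix unigenes, 3 epithelial unigenes and, below the grey line, the summed visceral muscle and fat body names. Fly 3 is highest for the 4 matrix unigenes and both sums, and lowest for cadherin-23-like and the spectrin beta chain.

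Members were long, and several shared a protein name. The median length was 3250 bases, beside 1831 over all unigenes, with a range of 551 to 13578. For 41 members, or 62.1%, the best hit was a protein of Hermetia illucens, the black soldier fly, and the median identity was 73.7%, beside 65.5% over all unigenes with a hit. The alignment covered a median of 67.9% of the hit, beside 84.4%. The 66 members carried 54 distinct names, and 23 members shared 11 of them. These formed 13 pairs. In 9 pairs the hits were of like length, the shorter at least 95% of the longer, so that residue positions can be set side by side. The alignments fell on separate stretches of the hit in 8 of these and overlapped in 1, laminin subunit beta-1. The 3 pairs of protein 4.1 homolog and the pair of myosin XV had hits of unlike length and were not compared by position.

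Such pairs may be parts of 1 transcript or products of related genes, which was not tested. Levels within the 8 pairs on separate stretches differed by a ratio of 1.04 to 3.88 in a fly, and the median of the pair means was 1.84. The 2 unigenes of integrin alpha-PS1, aligned to residues 7 to 925 and 938 to 1149, kept a ratio of 1.11, 1.17 and 1.04 in flies 1 to 3. For myosin Va the stretches were 1 to 1374 and 1407 to 1798 and the ratio was 1.13, 1.20 and 1.26. Both pairs stayed close to even. The 2 unigenes of spectrin beta chain, non-erythrocytic 1, aligned to 4 to 743 and 1284 to 4194, had a ratio of 3.26, 2.91 and 3.88 and stood at unequal levels. Sums over a role count each unigene, and reads shared between similar transcripts can be divided in ways the table does not show.

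**Figure D5:**
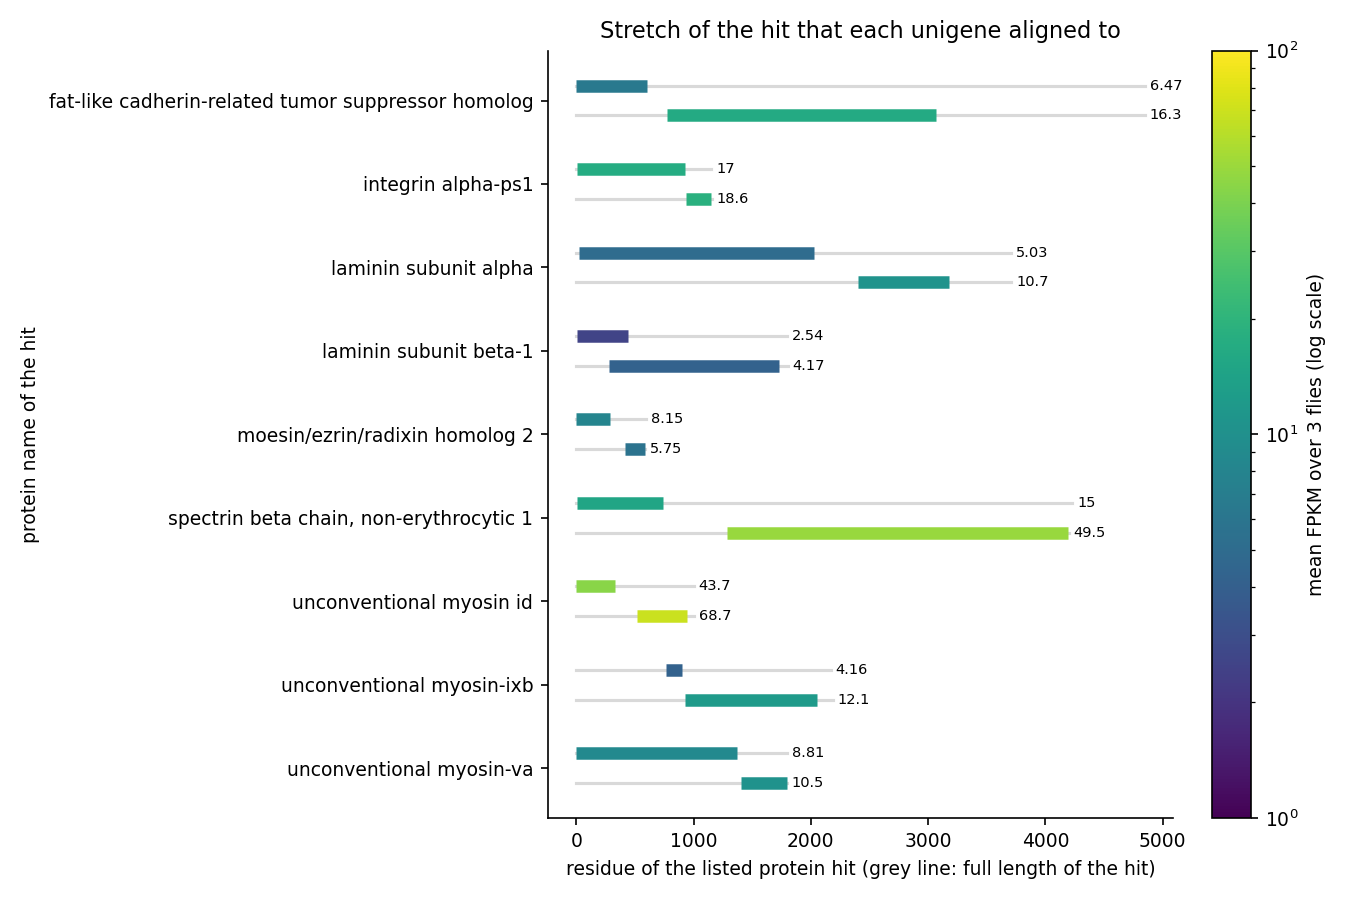
Stretch of the hit (horizontal axis, residues) that each of 18 unigenes aligned to, for the 9 names whose hits were of like length; the grey line is the full hit, colour and the number at its end give the mean FPKM over 3 flies. Within 8 names the stretches do not overlap; the exception is laminin subunit beta-1.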

How the data were processed

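RNA-seq of 3 individual midguts was analysed, 1 library per fly, matched to its column through the labels. Per the labels' protocols, TRIzol was used for total RNA and a KAPA RNA HyperPrep kit for the libraries. The deposited table gives FPKM per assembled unigene, with its length, its closest protein and the percent identity of that alignment, per the file headers. How reads were assembled, aligned and counted is not given in the sources. No count model was applied to FPKM. Dividing FPKM times length by its smallest value above 0 gave whole reads, within 0.001, for 97.1% to 97.3% of unigenes, and these served for depth and counting error alone, taking fragments of 2 mates. Differences were computed from the deposited FPKM on the log2(FPKM + 1) scale, which understates changes of low unigenes. Median-of-ratios factors used unigenes above 0 in every fly.

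Named unigenes were every member with one of a set of key junction names, the 3 most abundant of each role, every variable member and the 2 most abundant partners of each role. Others are named as further values of the members or where stated. The members and lists were chosen with earlier results of these data known. With 1 group no test was made. Python 3.11.15, NumPy 2.4.6, pandas 2.3.3 and matplotlib 3.10.9 were used, and the rules were tested on simulated data. No sequence is shown, since none of the files used here holds one.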

Additional observations from a re-analysis of the deposited data

How the results depend on the processing

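Of 98 alternatives to the summary results, 74 left the value within 1 SD between flies, or a count within 1.5 times. Part of these was fixed in advance: scaling cannot alter a share, and leaving out 1 of 3 flies cannot move a mean by 1 SD. The mean levels of 31 named members stayed within 1 SD in 124 of 124, fixed likewise except under median-of-ratios scaling. By ratio 3 of those means moved by over 1.5 times: without fly 3 collagen alpha-2(IX)-like fell from 11.2 to 2.50 FPKM and collagen alpha-1(IV) from 10.5 to 5.40, and without fly 1 tetraspanin-7-like from 5.82 to 2.77. Median-of-ratios scaling gave 1 variable member, 20 members highest in fly 3 and a median difference of fly 3 of -0.0806 (log2). Leaving out 1 fly at a time gave 1 variable member each time (range 1 to 1), and a pseudocount of 0.1 gave 4, adding collagen alpha-1(IV) and a metalloproteinase. At a minimum of 5 FPKM, 39 members were detected in all flies. The set held 0.532% without the 10 most abundant unigenes and 0.896% of reads, a unit that favours long transcripts. Shares of reads by role were 0.284% for the septate junction, 0.217% for cadherins and catenins, 0.156% for the membrane skeleton and 0.0976% for unconventional myosins. They were 0.0686% for the other tetraspanins, 0.0323% for integrins, 0.0245% for the basement membrane, 0.00617% for crumbs and 0.00939% for the proteins of another kind. Without its most abundant member, the septate junction held 0.0623% of FPKM, cadherins and catenins 0.014%, the other tetraspanins 0.00473%, the membrane skeleton 0.0384% and unconventional myosins 0.0275%. No paired analysis was possible because the 3 libraries form 1 group. Members rested on as few as 2, 4 and 54 reads in flies 1, 2 and 3, and counting error was far below the spread between flies for most.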

Other observations

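Gap junctions, which pass ions and small molecules between cells and are built from innexins in insects, were covered by 5 partner names. Innexin inx7 was the most abundant, at 211, 162 and 157 FPKM in flies 1, 2 and 3, and inx2 followed at 39.2, 39.5 and 47.3 FPKM. The other 3, inx3, shaking-B and inx1, had means of 2.82, 2.16 and 1.48 FPKM. Innexin inx7 alone made up 78.5% of the summed mean FPKM of the 5 names and was highest in fly 1, while inx2 was even across flies.

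The actin core of the cell cortex had 12 partner names, which summed to 451, 379 and 696 FPKM. Cofilin, which severs actin filaments, was at 103, 95.8 and 142 FPKM, and a subunit of the Arp2/3 complex, which starts branched filaments, at 94.0, 76.8 and 169 FPKM. Filamin-A, an actin cross-linker, was at 28.5, 28.8 and 68.8 FPKM. All 3 were highest in fly 3 as deposited. Its difference from the other flies after median-of-ratios scaling was 0.03 for cofilin, 0.50 for the Arp2/3 subunit and 0.76 for filamin-A. The alpha subunit of the actin capping protein was even as deposited, at 24.9, 24.3 and 23.8 FPKM. Over all 54 partner names, 41 of the 51 with a mean of at least 1 FPKM were highest in fly 3 as deposited, beside 66.1% of all unigenes, and 23 of 50 after scaling, beside 39.3%. Filamin is also abundant in muscle, and the part of the visceral muscle in these levels was not tested.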
